A study of Danio rerio with 6 samples.

Results

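Among 6 liver RNA-seq libraries of zebrafish, 2 carried vitellogenin RNA in bulk, and the comparison of those 2 with the other 4 is described here. The libraries were chosen by their measured counts: the counts of vtg1 to vtg7 were summed and divided by all counts of the library, and a library was called vitellogenic at 1% or more. Cryo 2 and cryo 3 met that rule, with 17.4% and 12.4%. Fresh 1 to 3 and cryo 1 lay under 0.01%, with 2.76e-04%, 1.02e-04%, 6.04e-04% and 1.55e-04%, and no library lay between. Both vitellogenic libraries belong to the cryopreserved sperm group, so the split and the treatment cannot be fully told apart. Cryo 1 is given beside fresh 1 to 3 for the genes whose CPM levels are printed. Some list members are named without levels, mostly with a call of the label test only.

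All fish were wild type and of the AB laboratory strain, and the tissue was liver. Fresh 1 to 3 are the controls, offspring from fresh sperm, and cryo 1 to 3 come from the treatment labelled sperm cryopreservation; the series title places the work among long-term effects on offspring. The labels call the libraries biological replicates and put them all in batch 1. They give neither sex, nor age, nor the number of fish per library, so a p-value here measures the spread between these libraries. The treatment labels were followed here, although the title letters F and C could stand for frozen and control. Were the labels swapped, each direction of cryopreserved over fresh would turn round. The comparison of the vitellogenic pair with the other 4 libraries would keep its directions, since measured counts chose the pair.

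Vitellogenins are the yolk precursor proteins of egg-laying animals. In mature female fish the liver makes them in response to oestrogen acting through its receptor, then secretes them into the blood, and the growing oocyte takes them up and cuts them into yolk proteins. They are large, lipid-carrying and phosphorylated, and vitellogenin RNA in a fish without mature ovaries is widely used as a sign of exposure to oestrogens.

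Total counts were 17046138, 17606733 and 16885619 in fresh 1 to 3, 16146121 in cryo 1, and 8277183 and 10409786 in cryo 2 and cryo 3, so the vitellogenic libraries were also the shallowest. Of 21810 genes with any count, 12674 passed the low-count filter and were compared. Levels are CPM, counts scaled to the normalised library size of those genes, without correction for gene length. As to the tissue, 14 hepatocyte marker genes were abundant in every library, and their summed level ran from 170895 to 279503 CPM over the 6 libraries. In the vitellogenic pair 8 of the 14 (57.1%) lay below all 4 other libraries, as did 13.9% of all tested genes, 1 of them, apoa2, by over 2-fold, and the median difference was -0.62 on the log2 scale. Ovary and oocyte markers, 26 of which had an entry, summed to 0.353, 0.544 and 1.02 CPM in fresh 1 to 3, 0.388 in cryo 1, and 0.568 and 3.44 in cryo 2 and cryo 3. None of them passed 0.666 CPM in any library, 15 were at 0 in both vitellogenic libraries and 9 in all 6. In bulk tissue, fewer cells of a type and less RNA per cell cannot be told apart.

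The yolk precursor genes themselves differed in their share between the vitellogenic libraries. In raw counts, vtg1 to vtg7 together had 47, 18 and 102 in fresh 1 to 3, 25 in cryo 1, 1441830 in cryo 2 and 1294018 in cryo 3. Most counts fell to vtg1, with 11.5% of all counts in cryo 2 and 10.8% in cryo 3, and it was the gene with the most counts in both. Transferrin, tfa, came next with 8.05% and 6.77%. The other vitellogenins differed more between the libraries than vtg1 did. Next in rank was vtg3, with 2.59% of all counts in cryo 2 and 0.86% in cryo 3. In cryo 2, vtg5 made up 1.67% and vtg2 0.826%, against 0.351% and 0.285% in cryo 3. For vtg6 the shares were 0.456% and 0.0363%, for vtg7 0.267% and 0.0149%, and for vtg4 0.16% and 0.109%. Within the summed vitellogenin counts, vtg1 therefore held 65.8% in cryo 2 and 86.7% in cryo 3.

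In the other 4 libraries these genes were at or near 0. No count of vtg2, vtg4 or vtg6 was recorded in any of them. With 3 counts over the 4 libraries as the floor, the mean of the vitellogenic pair was at least 35396-fold higher for vtg4. For vtg6 the mean was at least 65038-fold higher, with 5358 CPM in cryo 2 and 419 in cryo 3. Cryo 1 held 0.0647 CPM of vtg1, and fresh 1 to 3 held 0, 0.109 and 0. The exception was vtg5, which was detected in all 6 libraries, at 2.76, 0.871 and 5.92 CPM in fresh 1 to 3, 1.55 in cryo 1, and 19554 and 4053 in cryo 2 and cryo 3. Vitellogenin genes resemble each other in sequence, so reads may be shared between copies, and the split among them is uncertain.

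**Figure D1:**
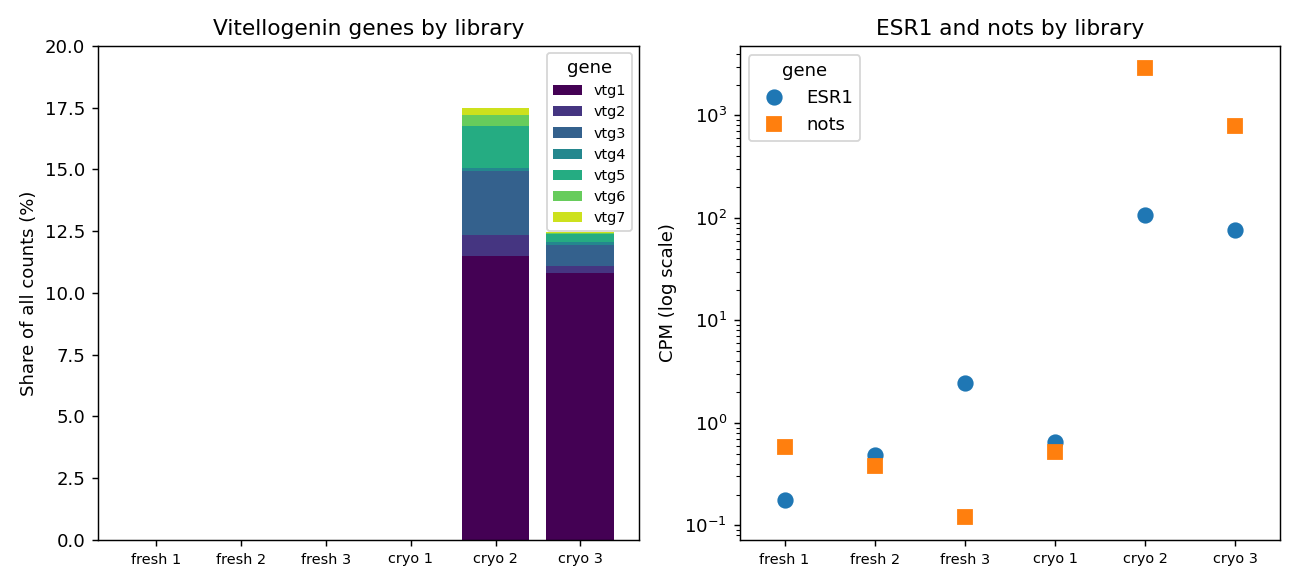
Left, the share of all counts (%) in each of the 7 vitellogenin genes, stacked, in the 6 libraries. Right, the level of ESR1 and nots in CPM on a log scale, with a point per library. Cryo 2 and cryo 3 reach 17.4% and 12.4% on the left and lie above the other 4 libraries for both genes on the right.

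The oestrogen receptor gene ESR1 and the aspartic protease gene nots, both known as liver genes of vitellogenic female fish, served as markers beside vtg1. ESR1 had 0.176, 0.49 and 2.45 CPM in fresh 1 to 3, 0.647 in cryo 1, and 108 and 77 in cryo 2 and cryo 3. The lower vitellogenic library was 31.4-fold above the highest of the others, which was fresh 3. For nots the levels were 0.588, 0.381 and 0.12 CPM in fresh 1 to 3, 0.518 in cryo 1, and 2877 and 792 in cryo 2 and cryo 3, and cryo 1 lay within the range of the fresh libraries. These values go with the choice of the libraries and are given without a test.

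Other steroid receptor genes did not separate in the same way. Of 21 tested genes of steroid receptors and their cofactors, ESR1 alone stood apart, as higher (4.76%, against 1.67% of all tested genes). ESR2 (ENSDARG00000034181), of another oestrogen receptor type, had 21.5, 56.2 and 50.8 CPM in fresh 1 to 3, 35.6 in cryo 1, and 69 and 89 in cryo 2 and cryo 3, so both vitellogenic libraries lay above the others by 1.23-fold at the nearest values. ESR2 (ENSDARG00000016454) overlapped, with 8.8 and 16.5 CPM in cryo 2 and cryo 3 against 8.11, 13.8 and 7.96 in fresh 1 to 3 and 7.57 in cryo 1. FOXA2, a liver transcription factor on this list that opens chromatin, had 34, 37 and 24.7 CPM in fresh 1 to 3, 40.2 in cryo 1, and 76.8 and 67.9 in cryo 2 and cryo 3.

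A tested gene was said to stand apart when both vitellogenic libraries lay beyond all 4 others, with a gap of at least 2-fold between the nearest values of log2 CPM. By that rule 212 of 12674 genes were higher, which is 1.67%, and 239 were lower, which is 1.89%. The 212 include vtg5, whose counts were among those that chose the pair. Without a minimum gap, 1506 genes (11.9%) lay above all 4 other libraries and 1767 (13.9%) below. At a gap of 4-fold, 44 were higher and 64 lower. The values just inside and outside the 2-fold line were alike: si:dkeyp-120h9.1 with 4.06, 1.25 and 3.11 CPM in fresh 1 to 3, 5.69 in cryo 1, and 36.9 and 11.5 in cryo 2 and cryo 3 was counted, and RPL3 with 2794, 2493 and 2347 CPM in fresh 1 to 3, 2189 in cryo 1, and 6310.4 and 5584 in cryo 2 and cryo 3 was not. On the lower side, UCP1 was just inside, at 5310.2, 8847 and 6820.1 CPM in fresh 1 to 3, 14473 in cryo 1, and 2269.8 and 2654 in cryo 2 and cryo 3, and si:dkey-277m11.2 just outside, at 22.5, 24.6 and 21.4 CPM in fresh 1 to 3, 23.2 in cryo 1, and 10.6 and 10.3 in cryo 2 and cryo 3.

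These counts rest on the scaling and on the filter. With TMM scaling the median difference of all tested genes between the vitellogenic and the other libraries was -0.01 on the log2 scale. With totals of all counts, of which vitellogenin took a part, that median was -0.22, and 128 genes stood apart higher and 329 lower. The filter asks for expression in 3 libraries and so leaves out genes that only the vitellogenic pair expressed. Asking for 2 libraries, a filter chosen after seeing the data, gave 318 higher (2.36% of 13487) and 241 lower (1.79%), with scaling factors estimated anew. That filter admits genes through the pair where they are high, so the larger count of higher genes is built in. It also admits the other vitellogenins, whose counts chose the pair.

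Libraries also differed by more than the vitellogenic split. Cryo 2 and cryo 3 differed from each other by over 2-fold in 3345 of 12673 genes, against 1463 to 2011 for pairs of fresh libraries and 2968 to 3411 for cryo 1 against a fresh library. Between cryo 1 and cryo 3 the number was 2883, fewer than within the vitellogenic pair, and between cryo 1 and cryo 2 it was 3859. Pearson correlations of log2 CPM did not separate the first 2 of these pairs. They were 0.901 for cryo 2 and cryo 3, 0.9 for cryo 1 and cryo 3, and 0.876 for cryo 1 and cryo 2. Cryo 2 was also the shallowest library, and the part of depth in these numbers was not tested. Cryo 2 differed from the fresh libraries in 4043 to 4516 genes and cryo 3 in 3291 to 3798. Within the 211 higher genes other than vtg5, the median difference between cryo 2 and cryo 3 was 0.35 on the log2 scale, and 4 genes differed by over 4-fold. Within the 239 lower genes it was 0.50, and 17 differed by over 4-fold. Cryo 2 was the lower of the pair for 139 of these genes and cryo 3 for 72.

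Cryo 1 shares the treatment label with the vitellogenic libraries but had 25 vitellogenin counts in all. Of the 212 genes that stood apart higher, cryo 1 lay above all 3 fresh libraries for 71 (33.5%), within their range for 91 (42.9%) and below for 50 (23.6%). Over all tested genes those shares were 30%, 35% and 35.1%. The median difference of these 212 genes was 2.13 on the log2 scale between the vitellogenic and the other libraries, and 0.10 between cryo 1 and the fresh mean. Of the 239 lower genes, cryo 1 lay below all fresh libraries for 127 (53.1%), within for 83 (34.7%) and above for 29 (12.1%). Their medians were -2.47 and -0.45. Cryo 1 is part of the 4 libraries that the vitellogenic pair had to clear, which limits how far it can lie on their side.

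**Figure D2:**
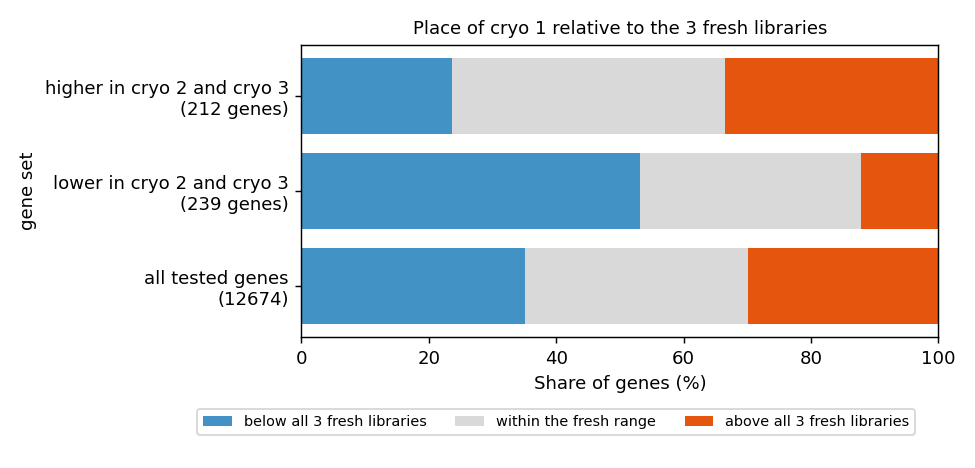
Share of genes (%) for which cryo 1 lay above, within or below the range of the 3 fresh libraries, for the genes that stood apart higher, those that stood apart lower and all tested genes. Cryo 1 was above for 33.5% of the higher genes, below for 53.1% of the lower genes, and above or below for 30% and 35.1% of all tested genes.

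Most of the tested cholesterol synthesis genes stood apart higher. The liver builds cholesterol from acetyl-CoA, through mevalonate and squalene, and the transcription factor SREBP2 switches the enzymes of that route on. Of 25 tested genes on this list 14 stood apart higher (56%, against 1.67% of all tested genes) and none lower. Above all 4 other libraries lay 18 (72%, against 11.9% of all tested genes). The median difference was 1.85 on the log2 scale, and it was -0.16 for cryo 1 against the fresh mean. The largest gap was in SQLE (ENSDARG00000079946), squalene epoxidase, with 0.706, 0 and 0.12 CPM in fresh 1 to 3, 0.0647 in cryo 1, and 24.5 and 44.5 in cryo 2 and cryo 3.

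Genes that stood apart lay along most of the route. At its start, HMGCS1, which makes the precursor of mevalonate, had 15.2, 9.42 and 11.8 CPM in fresh 1 to 3, 8.02 in cryo 1, and 129 and 167 in cryo 2 and cryo 3, a gap of 8.46-fold. MVK and MVD act on mevalonate and its phosphates. MVD had 0.882, 1.03 and 1.08 CPM in fresh 1 to 3, 1.36 in cryo 1 and 12.2 and 18.5 in the vitellogenic pair, with a gap of 8.98-fold. For MVK the levels were 0.706, 0.653 and 1.38 CPM in fresh 1 to 3, 0.518 in cryo 1 and 2.98 and 4.11 in the pair. FDPS, which joins the isoprene units, had 6.35, 5.44 and 6.46 CPM in fresh 1 to 3, 6.15 in cryo 1, and 22.7 and 34.3 in cryo 2 and cryo 3. FDFT1, squalene synthase, had 1.18, 2.72 and 1.56 CPM in fresh 1 to 3, 2.78 in cryo 1, and 5.82 and 14.2 in cryo 2 and cryo 3. LSS closes the sterol rings, and it had 1.35, 0.762 and 0.359 CPM in fresh 1 to 3, 0.259 in cryo 1 and 9.93 and 22.2 in cryo 2 and cryo 3.

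Of the enzymes that trim lanosterol to cholesterol, most but not all showed the same order of libraries. MSMO1, a sterol methyl oxidase, had 12.1, 8.93 and 5.26 CPM in fresh 1 to 3, 12.4 in cryo 1, and 33.6 and 64.7 in cryo 2 and cryo 3. EBP, a sterol isomerase, had 1.88, 0.653 and 0.598 CPM in fresh 1 to 3, 1.1 in cryo 1, and 8.51 and 13.3 in cryo 2 and cryo 3. Cryo 3 was above cryo 2 for both, as it was for HSD17B7 (4.54 and 12.1 CPM, against 1.06, 0.98 and 1.44 in fresh 1 to 3 and 1.04 in cryo 1) and SC5D (20.1 and 31.6, against 6.82, 7.95 and 7.54 in fresh 1 to 3 and 6.21 in cryo 1). TM7SF2, a sterol reductase, split the vitellogenic pair, with 4.47, 3.87 and 1.85 CPM in fresh 1 to 3, 0 in cryo 1, and 13.1 and 0.111 in cryo 2 and cryo 3. NSDHL, a sterol dehydrogenase, lay above the others by 1.09-fold at the nearest values, short of the 2-fold gap. CYP51A1, another enzyme of this stretch that was not on the list and was chosen after its values were seen, had 42.2, 15 and 14.4 CPM in fresh 1 to 3, 16.8 in cryo 1, and 92.4 and 156 in cryo 2 and cryo 3.

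The regulators of the route were mixed. srebf2, the gene of SREBP2, had 32.6, 27.3 and 21.8 CPM in fresh 1 to 3, 33.1 in cryo 1, and 99.2 and 107 in cryo 2 and cryo 3, 2.99-fold above the nearest other library. INSIG2, which holds SREBP2 back in the endoplasmic reticulum, went the other way, with 4.54 and 9.99 CPM in cryo 2 and cryo 3, 14.2, 17.2 and 14.8 in fresh 1 to 3 and 11.8 in cryo 1. ldlra, a receptor that takes up cholesterol from the blood, followed another split, with 122 and 423 CPM in the vitellogenic pair, 95.8, 821 and 1050.0 in the fresh libraries and 117 in cryo 1. DHCR7 had 9.94, 9.47 and 8.08 CPM in fresh 1 to 3, 14.2 in cryo 1, and 23.1 and 45.8 in cryo 2 and cryo 3, and IDI1 had 64.5, 42.6 and 65.2 CPM in fresh 1 to 3, 38.2 in cryo 1, and 78.9 and 67.9 in cryo 2 and cryo 3, both short of the 2-fold gap. By the test of the label, cryopreserved over fresh, 0 of the 25 genes passed the threshold of 0.05 in either direction (edgeR's quasi-likelihood test, Benjamini-Hochberg adjustment). At an unadjusted p under 0.05 the same test had 14 higher and 1 lower, and the all-gene share at that setting is not given. DESeq2, the alternative tool, called 13 as higher and 0 as lower after adjustment, and it also called more genes than edgeR over the whole set. Cryo 2 and cryo 3 make up 2 of the 3 libraries on one side of that test.

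**Figure D3:**
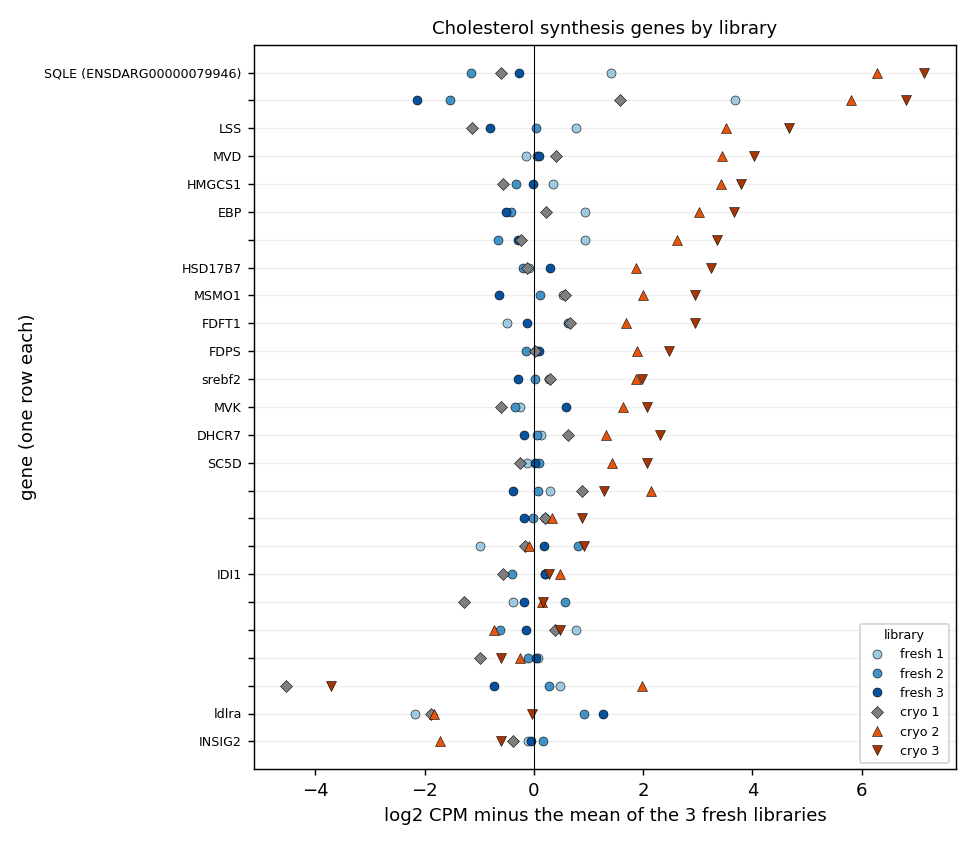
Level of each tested cholesterol synthesis gene as log2 CPM minus the mean of the 3 fresh libraries, with a marker per library and names beside the genes described in the text. For 14 of 25 genes cryo 2 and cryo 3 lie at least 2-fold to the right of the other 4 libraries; cryo 1 lies among the fresh libraries or near them for most.

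Ribosomal protein genes were the largest group among the higher genes by number. Ribosomes translate messenger RNA, and their cytosolic proteins are encoded by a family of co-regulated genes. Of 76 tested, 48 stood apart higher (63.2%, against 1.67% of all tested genes) and none lower. Above all 4 other libraries lay 71 (93.4%, against 11.9% of all tested genes). Their summed share of all counts was 5.25%, 5.33% and 4.86% in fresh 1 to 3, 4.401% in cryo 1, and 11.6% and 10.05% in cryo 2 and cryo 3. The median difference over the list was 1.33, against -0.10 in cryo 1. The 48 that stood apart differed by a median of 1.41 on the log2 scale, and 45 of them by less than 2.5. The 2-fold gap sets a floor on these differences, so their like size is partly built in. Of all 76, 72 had a positive difference and 4 a negative one.

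RPLP0, a protein of the ribosomal stalk, had 2756, 2972 and 2550.0 CPM in fresh 1 to 3, 2489 in cryo 1, and 9408 and 8480.3 in cryo 2 and cryo 3. RPL30 varied more among the other libraries, with 19, 92.1 and 21.2 CPM in fresh 1 to 3 and 91.5 in cryo 1, against 334 and 618 in cryo 2 and cryo 3. The largest differences were in genes that were scarce elsewhere. RPL21 had 3.65, 5.39 and 6.7 CPM in fresh 1 to 3, 5.82 in cryo 1, and 338 and 563 in cryo 2 and cryo 3, and RPS12 had 4.23, 7.35 and 3.29 CPM in fresh 1 to 3, 4.14 in cryo 1, and 583 and 272 in cryo 2 and cryo 3. RPL21, RPS12, RPL10 and RPL39 were the 4 members of the 48 with a mean under 50 CPM in the other 4 libraries. Ribosomal protein genes have near-identical copies in the genome, reads of which may be shared, so the values of these 4 are uncertain. With edgeR the label test called 1 of the 76 genes, RPL12, as lower and 0 as higher. Over all tested genes it called 0.963% lower and 1.02% higher. The call of RPL12 was lost when any 1 library other than cryo 1 was left out. At an unadjusted p under 0.05 the test had 37 higher and 1 lower, and DESeq2 called 8 as higher and 1 as lower. DESeq2 also called more genes than edgeR over the whole set, and the all-gene share at the unadjusted p is not given.

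Among translation factors, which load and move the ribosome, 4 of 39 stood apart (10.3%), all higher, against 1.67% of all tested genes. Above all other libraries lay 19 (48.7%, against 11.9% of all tested genes). The median difference was 0.60, against -0.15 in cryo 1. All 4 that stood apart were elongation factors. eef1a1l1, which brings transfer RNA to the ribosome, had 9986, 9272 and 9469 CPM in fresh 1 to 3, 7516 in cryo 1, and 20429 and 21025 in cryo 2 and cryo 3. EEF1B2, part of the complex that recharges it, had 222, 214 and 194 CPM in fresh 1 to 3, 174 in cryo 1, and 705 and 669.9 in cryo 2 and cryo 3, a gap of 3.02-fold. EEF1G, of the same complex, had 1202, 1188 and 1126 CPM in the fresh libraries, 944 in cryo 1 and 3144 and 3304 in the pair. The entry named EEF2, after the factor that moves the ribosome along, had 4.23, 5.39 and 4.37 CPM in fresh 1 to 3. It had 8.67 in cryo 1, and 99.7 and 37.7 in cryo 2 and cryo 3. This entry was scarce beside eef1a1l1, and whether other entries encode the same factor was not examined. The label test called pabpc1b as higher (adjusted p = 0.0408) and eif4ebp1, a brake on translation, as lower (adjusted p = 0.00479). The call of eif4ebp1 held with each library left out, and that of pabpc1b was lost when any 1 library other than cryo 1 was left out.

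Secreted proteins such as vitellogenin enter the endoplasmic reticulum as they are made. Of 38 genes for entry and glycosylation, 4 stood apart higher (10.5%, against 1.67% of all tested genes) and none lower. Above all other libraries lay 14 (36.8%, against 11.9% of all tested genes). The median difference was 0.68, against -0.52 in cryo 1. All 4 that stood apart belong to the entry channel or its partners. SEC61A1 (ENSDARG00000021669), the channel itself, had 985, 941 and 792 CPM in fresh 1 to 3, 792 in cryo 1, and 2369 and 3189 in cryo 2 and cryo 3. The genes of the signal sequence receptor, which sits beside the channel, showed the same order. SSR1 had 135, 90.0 and 91.2 CPM in fresh 1 to 3, 90.8 in cryo 1, and 343 and 327 in cryo 2 and cryo 3. SSR2 had 311, 231 and 216 CPM in fresh 1 to 3, 284 in cryo 1, and 873 and 741 in cryo 2 and cryo 3, and SSR3 had 22.2, 10.8 and 12.6 CPM in fresh 1 to 3, 18.8 in cryo 1, and 79.2 and 70.6 in cryo 2 and cryo 3. Other members went otherwise. SEC11A, of the signal peptidase, had 3.88, 2.67 and 3.77 CPM in fresh 1 to 3, 0.129 in cryo 1, and 0.142 and 0.222 in cryo 2 and cryo 3, and it was the 1 gene of the list that the label test called, as lower (adjusted p = 0.00988), a call lost without fresh 3 (adjusted p = 0.0714). TRAM1, a partner of the channel, split the vitellogenic pair, with 36.1, 19.6 and 24.8 CPM in fresh 1 to 3, 1.36 in cryo 1, and 3.41 and 96.9 in cryo 2 and cryo 3.

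Folding and the stress response of this compartment were less uniform. Of 42 tested folding genes 2 stood apart higher (4.76%, against 1.67% of all tested genes) and none lower. The median difference was 0.47, against -0.76 in cryo 1. ern1, which senses unfolded proteins, had 11.8, 19.3 and 15.3 CPM in fresh 1 to 3, 15.3 in cryo 1, and 61.1 and 53.8 in cryo 2 and cryo 3. ERO1A, which forms disulphide bonds, had 1.18, 0.381 and 0.658 CPM in fresh 1 to 3, 1.1 in cryo 1, and 2.55 and 7.44 in cryo 2 and cryo 3. XBP1, the transcription factor that ern1 activates, was 1638 CPM in cryo 2 but 397 in cryo 3, next to 341, 181 and 206 in fresh 1 to 3 and 162 in cryo 1. HSPA5, the main chaperone, overlapped between the groups, with 192 and 345 CPM in the vitellogenic pair, 472, 146 and 189.9 in the fresh libraries and 22.6 in cryo 1, which was lowest. Of 30 genes for transport on to the Golgi none stood apart in either direction, with a median difference of -0.11. Those with the most counts were sar1b and SEC23B, both of the vesicle coat. For sar1b the levels were 157, 109.9 and 140.2 CPM in fresh 1 to 3, 79.6 in cryo 1 and 80.02 and 78.3 in the pair, and for SEC23B they were 132, 165 and 122, then 54.5 in cryo 1 and 98 and 66.6 in the pair.

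**Figure D4:**
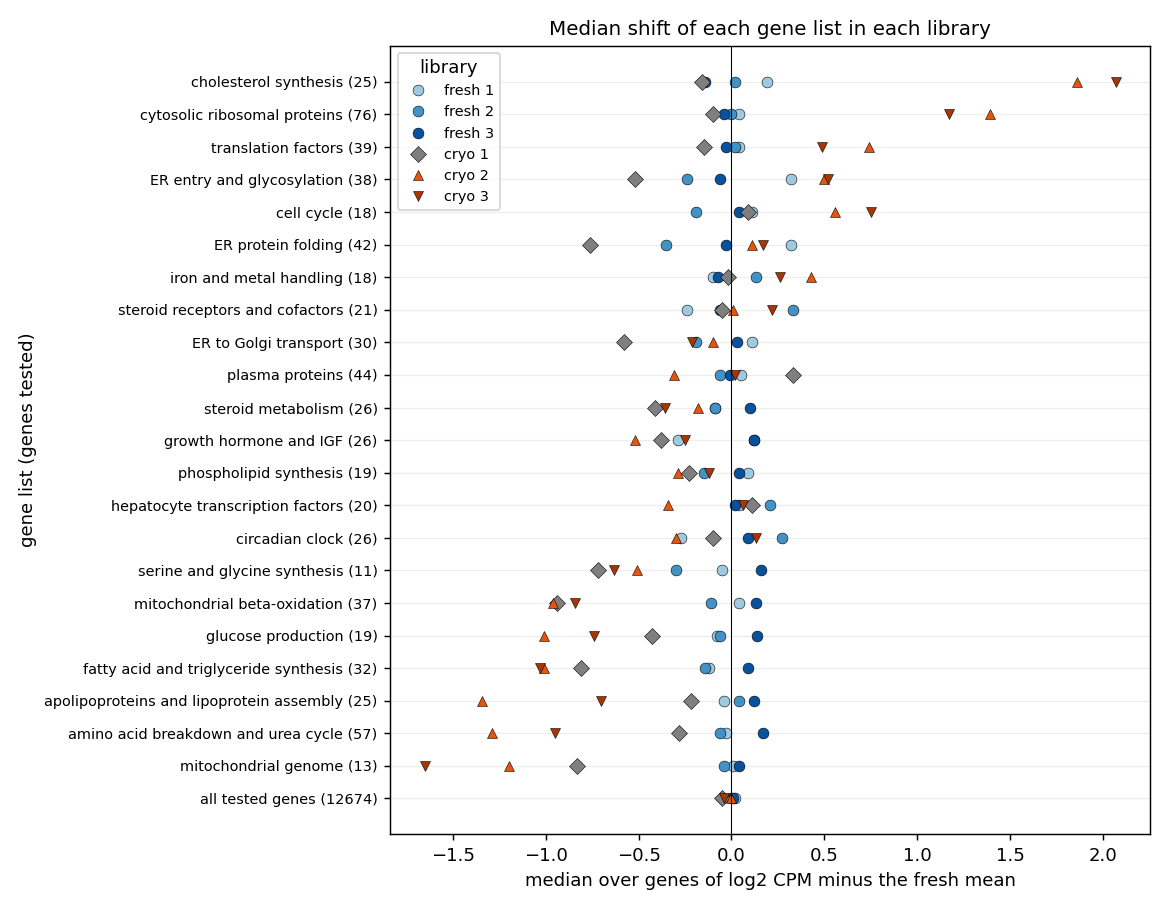
Median over the tested genes of each list of log2 CPM minus the fresh mean, with a marker per library and the number of tested genes after each name. Cryo 2 and cryo 3 lie farthest right, among the lists drawn, which leave out vitellogenin and markers of cell types, for cholesterol synthesis (1.86 and 2.07) and ribosomal proteins (1.39 and 1.17), while cryo 1 lies at -0.16 and -0.10; for beta-oxidation all 3 cryo libraries lie between -0.96 and -0.84.

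Outside the lists, some of the widest gaps on the higher side lay in the following genes. rtn1a, a reticulon that shapes the endoplasmic reticulum, had 3.23, 3.87 and 4.49 CPM in fresh 1 to 3, 7.63 in cryo 1, and 2532 and 714 in cryo 2 and cryo 3, 93.5-fold above the nearest other library. TMED1 (ENSDARG00000031325), of the p24 family of cargo proteins, had 0.118, 0.817 and 0.0598 CPM in fresh 1 to 3, 0.518 in cryo 1, and 27.5 and 16.4 in cryo 2 and cryo 3. mych, a transcription factor of the Myc family, had 2.29, 8.55 and 4.91 CPM in fresh 1 to 3, 5.76 in cryo 1, and 231 and 371 in cryo 2 and cryo 3. For pa2g4b, a gene linked to cell growth in mammals, the levels were 1.18, 1.25 and 0.897 CPM in fresh 1 to 3, 1.16 in cryo 1, and 22.6 and 16.8 in cryo 2 and cryo 3. FLNC (ENSDARG00000018820), an actin cross-linker, had 1.12, 2.56 and 1.73 CPM in fresh 1 to 3, 1.23 in cryo 1, and 26 and 33.7 in cryo 2 and cryo 3. In all of these cryo 1 lay within the fresh range or less than 2-fold above it, far from the vitellogenic pair. Without a named function in the table used, zgc:174259 had 7.7, 3.76 and 5.8 CPM in fresh 1 to 3, 4.98 in cryo 1, and 179 and 643 in cryo 2 and cryo 3, and si:dkey-234i14.6 had 0.529, 1.58 and 1.44 CPM in fresh 1 to 3, 0.97 in cryo 1, and 32.6 and 14.8 in cryo 2 and cryo 3.

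Further higher genes were chosen after their values were seen. serpina7, which in mammals binds thyroid hormone in blood, had 46.7, 14.8 and 31.3 CPM in fresh 1 to 3, 29.95 in cryo 1, and 207 and 303 in cryo 2 and cryo 3. aqp12, an aquaporin, had 369.5, 317 and 281 CPM in fresh 1 to 3, 365 in cryo 1, and 2096 and 1652 in cryo 2 and cryo 3. SND1 had 293, 197 and 175 CPM in fresh 1 to 3, 208 in cryo 1, and 836 and 894 in cryo 2 and cryo 3, and RRBP1, a ribosome-binding protein of the endoplasmic reticulum, had 60.7, 56.6 and 55.4 CPM in fresh 1 to 3, 55 in cryo 1, and 526 and 125 in cryo 2 and cryo 3, with a wide difference between the vitellogenic libraries. In 3 other genes of this choice fresh 1 and cryo 1 also lay above fresh 2 and fresh 3. SAA2, a serum amyloid gene, had 2.76, 0 and 0.0598 CPM in fresh 1 to 3, 6.92 in cryo 1, and 24.5 and 112 in cryo 2 and cryo 3. LECT2 (ENSDARG00000033227), a secreted chemotactic protein, had 24.5, 1.03 and 2.51 CPM in fresh 1 to 3, 37.9 in cryo 1, and 214 and 556 in cryo 2 and cryo 3. itln3, a lectin gene, had 1603, 87.7 and 88.1 CPM in fresh 1 to 3, 1435 in cryo 1, and 3413 and 4725 in cryo 2 and cryo 3.

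Genes that only the vitellogenic pair expressed could not pass the filter of 3 libraries. Under the filter of 2 libraries 813 further genes were compared. With the scaling factors of the other genes kept, 94 of them stood apart higher and 16 lower, a surplus that this filter builds in. The 94 include vtg1, vtg2, vtg3, vtg4, vtg6 and vtg7, whose counts chose the pair. The ones named here were chosen after their values were seen. cyp2k6, a cytochrome P450 gene, was at 0 in the other 4 libraries and at 347 and 216 CPM in cryo 2 and cryo 3. Its relative cyp2k22 had the opposite pattern, with 377, 769 and 736 CPM in fresh 1 to 3, 216 in cryo 1 and 0 in both vitellogenic libraries. Against the mean of the other 4 libraries that is at least 2806-fold lower, with 3 counts over the pair as the floor. Over the 10 cyp2k genes in the table, the summed level was 832, 1207 and 1226 CPM in fresh 1 to 3, 687 in cryo 1, and 836 and 643 in cryo 2 and cryo 3, so the sum overlapped between the groups. Reads of near-identical copies may have been divided among these genes.

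ACSL5, which activates fatty acids, was likewise at 0 in the other 4 libraries and at 32.1 and 36.6 CPM in the vitellogenic pair. IYD, which recovers iodine from thyroid hormone precursors, was at 0 in the fresh libraries, 0.129 CPM in cryo 1 and 44.7 and 40.3 in cryo 2 and cryo 3. Both fam20cl and fam20ca, relatives of the mammalian kinase of secreted proteins, were detected in the pair. fam20cl was at 0 in all 4 others and at 25.7 and 5.33 CPM in cryo 2 and cryo 3, and fam20ca had 0.412, 0.163 and 0.419 CPM in fresh 1 to 3, 0 in cryo 1, and 16.9 and 9.99 in cryo 2 and cryo 3. DNAJC16 (ENSDARG00000059699), of a co-chaperone family, had 0, 0.0544 and 0.0598 CPM in fresh 1 to 3, 0.0647 in cryo 1, and 20.4 and 12.4 in cryo 2 and cryo 3. lhcgr, the receptor of luteinising hormone, had 0.0588, 0.218 and 0.179 CPM in fresh 1 to 3, 0.323 in cryo 1, and 2.84 and 6.44 in cryo 2 and cryo 3.

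On the lower side, the widest gaps included the following genes. SLC27A6, of the fatty acid transport proteins, had 154, 510.0 and 444 CPM in fresh 1 to 3, 101 in cryo 1, and 0.426 and 0 in cryo 2 and cryo 3. SLC38A3 (ENSDARG00000027065), which carries glutamine, had 45.7, 86.4 and 55.6 CPM in fresh 1 to 3, 55 in cryo 1, and 0.284 and 1.44 in cryo 2 and cryo 3. CTH (ENSDARG00000032206), which makes cysteine, had 11.2, 22.5 and 14.4 CPM in fresh 1 to 3, 2.91 in cryo 1 and 0 in both vitellogenic libraries. Against the mean of the other libraries it was at least 68.3-fold lower. A further CTH gene (ENSDARG00000074301) had 77.8, 60.8 and 73.2 CPM in fresh 1 to 3, 39.4 in cryo 1, and 4.82 and 7.44 in cryo 2 and cryo 3. ENTPD3, which splits nucleotides outside the cell, had 9.94, 9.09 and 19.7 CPM, 4.59 in cryo 1 and 0 in the pair. The chemokine gene ccl39.2 had 209, 293 and 219 CPM in fresh 1 to 3, 169 in cryo 1, and 5.39 and 7.66 in cryo 2 and cryo 3, and tenm1, of the teneurin family, had 6.82, 15.5 and 7 CPM in fresh 1 to 3, 5.95 in cryo 1, and 0 and 0.111 in cryo 2 and cryo 3. Cryo 1 lay within the fresh range for SLC38A3 and below it for the others named so far.

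Genes without a described function were among them. zgc:64106 had 319, 420.1 and 388 CPM in fresh 1 to 3, 351 in cryo 1, and 10.6 and 13.3 in cryo 2 and cryo 3. si:dkey-215k6.1, si:ch211-220m17.4 and si:ch211-201o1.1 were at 0 in both vitellogenic libraries. The first had 9.35, 20.4 and 10.6 CPM in fresh 1 to 3 and 8.47 in cryo 1. For si:ch211-220m17.4 these were 7.76, 10.7 and 10.7 and 13.6, and for si:ch211-201o1.1 they were 15.9, 8.38 and 7.42 and 8.41.

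Breakdown of amino acids was the list with the most genes on the lower side. Of 57 tested genes of amino acid breakdown and the urea cycle, 10 stood apart lower (17.5%, against 1.89% of all tested genes) and none higher. Below all 4 other libraries lay 33 (57.9%, against 13.9% of all tested genes). The median difference was -1, against -0.28 in cryo 1. tdo2b, which opens the tryptophan ring, had 291, 431 and 668 CPM in fresh 1 to 3, 168 in cryo 1, and 5.39 and 0.333 in cryo 2 and cryo 3, the widest gap of the list at 31.1-fold. The entry TDO2, named after the same enzyme, split the vitellogenic pair. As log2 CPM minus the fresh mean, it was at -1.44 in cryo 2 and 0.569 in cryo 3. Its values were 0.415, -0.369 and -0.045 in fresh 1 to 3 and -0.556 in cryo 1. At the end of the tyrosine route, FAH had 212, 259 and 271 CPM in fresh 1 to 3, 159.9 in cryo 1, and 55.2 and 56.8 in cryo 2 and cryo 3. In the leucine route, IVD had 158, 97.4 and 131 CPM in fresh 1 to 3, 68.4 in cryo 1, and 0.426 and 13.3 in cryo 2 and cryo 3, and MCCC1 had 21.3, 19.7 and 24.5 CPM in fresh 1 to 3, 14.6 in cryo 1, and 4.11 and 3.22 in cryo 2 and cryo 3.

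Further members covered other amino acids. GCDH (ENSDARG00000037057), of the lysine and tryptophan routes, had 141, 119 and 151 CPM in fresh 1 to 3, 85.7 in cryo 1, and 24.1 and 35.9 in cryo 2 and cryo 3. UROC1, of the histidine route, had 271, 253 and 430.1 CPM in fresh 1 to 3, 198 in cryo 1, and 71.4 and 76.2 in cryo 2 and cryo 3. ALDH4A1, of the proline route, had 135, 166 and 188 CPM in fresh 1 to 3, 92.1 in cryo 1, and 20.6 and 36.2 in cryo 2 and cryo 3. ARG2, an arginase, had 805, 569 and 732 CPM in fresh 1 to 3, 843 in cryo 1, and 53.2 and 265 in cryo 2 and cryo 3, with cryo 1 highest of all. GOT1, which exchanges amino groups between aspartate and glutamate and also counts to glucose production, had 207, 211 and 245 CPM in fresh 1 to 3, 164 in cryo 1, and 21.4 and 49.8 in cryo 2 and cryo 3. Across these genes cryo 1 was the lowest of the non-vitellogenic libraries in every one but ARG2. The label test called 3 of the 57, all lower, where 0.963% of all tested genes were called lower. The 3 were GPT (ENSDARG00000019541, adjusted p = 0.0257), MMUT (adjusted p = 0.0315) and BCKDHA (adjusted p = 0.0489). GPT, alanine aminotransferase, had 1565, 1487 and 1934 CPM in fresh 1 to 3, 449 in cryo 1, and 232 and 224 in cryo 2 and cryo 3, so cryo 1 was on the side of the vitellogenic pair. Each of these 3 calls was lost when any 1 library other than cryo 1 was left out, with adjusted p up to 0.203. Another GPT entry (ENSDARG00000055642) overlapped between the groups. As log2 CPM minus the fresh mean, it was at 0.335 in cryo 2 and -0.175 in cryo 3. Its values were -1.06, 0.932 and 0.127 in fresh 1 to 3 and -0.756 in cryo 1.

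**Figure D5:**
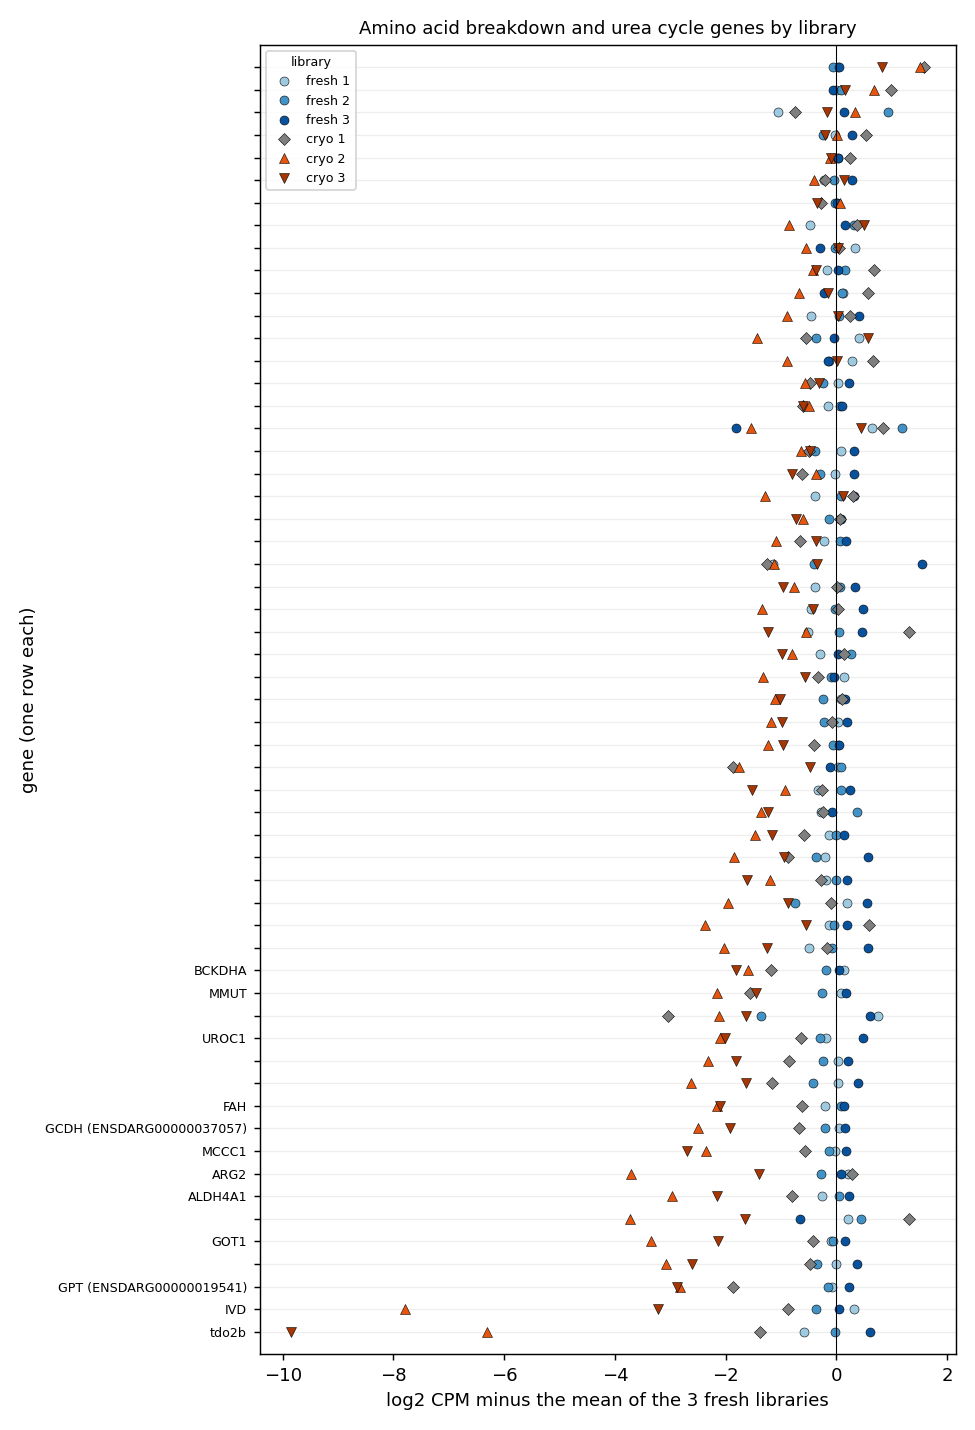
Level of each tested gene of amino acid breakdown and the urea cycle as log2 CPM minus the mean of the 3 fresh libraries, with a marker per library and names beside the genes described in the text. For 33 of 57 genes cryo 2 and cryo 3 lie to the left of the other 4 libraries, and for 10 of them by at least 2-fold.

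Glucose production uses the carbon of these amino acids. Of 19 tested genes 1, GOT1, stood apart lower (5.26%, against 1.89% of all tested genes). Below all other libraries lay 10 (52.6%, against 13.9% of all tested genes). The median difference was -0.88, against -0.43 in cryo 1. PCK1, which commits carbon to glucose, had 2910.4, 1524 and 3563 CPM in fresh 1 to 3, 1345 in cryo 1, and 119 and 1246 in cryo 2 and cryo 3. Cryo 3 lay close to cryo 1 for this gene, and cryo 2 far below both. The label test called 2 genes as lower, where 0.963% of all tested genes were called lower. They were GPT and PPARGC1A, a coactivator of the pathway (adjusted p = 0.0251). Both calls were lost when any 1 library other than cryo 1 was left out.

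Methyl transfer and phospholipid genes included 3 that stood apart lower, of 19 on the phospholipid list (15.8%, against 1.89% of all tested genes). MAT1A, which makes the methyl donor S-adenosylmethionine, had 1294, 924 and 1393 CPM in fresh 1 to 3, 594 in cryo 1, and 192 and 255 in cryo 2 and cryo 3. GNMT, which uses up that donor, had 446, 359.9 and 459.5 CPM in fresh 1 to 3, 293 in cryo 1, and 83.6 and 91.8 in cryo 2 and cryo 3. PCYT1A (ENSDARG00000011233), which controls phosphatidylcholine synthesis, had 37.2, 27.5 and 28.7 CPM in fresh 1 to 3, 16 in cryo 1, and 4.97 and 5.88 in cryo 2 and cryo 3. The list as a whole was not shifted one way. Above all other libraries lay 4 members (21.1%) and below them 6 (31.6%), against 11.9% and 13.9% of all tested genes. The list's median difference of -0.24 took the opposite sign when a library was left out. In the label test CHKA, a choline kinase, rose (adjusted p = 0.0419), a call lost when any 1 library other than cryo 1 was left out.

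Lipid transport in blood is another task of the liver. Of 25 genes of apolipoproteins and lipoprotein assembly, 3 stood apart lower (12%, against 1.89% of all tested genes) and none higher. Below all others lay 11 (44%, against 13.9% of all tested genes). The median difference was -0.78, against -0.22 in cryo 1. apoeb, an apolipoprotein E gene, had 3596, 3836 and 3678 CPM in fresh 1 to 3, 1467 in cryo 1, and 128 and 653 in cryo 2 and cryo 3. Another apolipoprotein E gene, apoea, was the 1 member above all others (4%, against 11.9% of all tested genes). As log2 CPM minus the fresh mean, it was at 1.33 in cryo 2 and 2.83 in cryo 3. Its values were 1.29, -0.998 and -0.292 in fresh 1 to 3 and 0.876 in cryo 1. apoa2, an apolipoprotein of high-density lipoprotein, had 37005, 32708 and 38543 CPM in fresh 1 to 3, 25148 in cryo 1, and 11424 and 12146 in cryo 2 and cryo 3. PLTP, which moves phospholipid between particles, had 3.47, 6.15 and 5.74 CPM in fresh 1 to 3, 5.56 in cryo 1, and 1.56 and 1.33 in cryo 2 and cryo 3. apoa1b, the apolipoprotein gene with the most counts, had 47101, 41355 and 48319 CPM in fresh 1 to 3, 39360.4 in cryo 1, and 16652 and 33132 in cryo 2 and cryo 3 and did not reach the gap, since cryo 3 lay near cryo 1. Its paralog apoa1a had 886, 994 and 696 CPM in fresh 1 to 3, 746 in cryo 1, and 226 and 558 in cryo 2 and cryo 3.

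For fatty acid and triglyceride synthesis, the list median lay below the fresh mean in all 3 libraries of the cryopreserved group. Of 32 tested, 2 stood apart lower (6.25%, against 1.89% of all tested genes) and none higher. Below all others lay 9 (28.1%, against 13.9% of all tested genes). The median difference was -0.77 for the vitellogenic pair, and -0.81 for cryo 1 against the fresh mean. ME1, which supplies reducing power for this synthesis, had 552, 546 and 976 CPM in fresh 1 to 3, 62.8 in cryo 1, and 2.41 and 31.3 in cryo 2 and cryo 3. ELOVL6, a fatty acid elongase, had 139, 55.2 and 80.4 CPM in fresh 1 to 3, 3.56 in cryo 1, and 0 and 0.222 in cryo 2 and cryo 3. ELOVL6 fell in the label test, with a log2 change of -5.99 ± 1.11 (SE, n = 3 per group, adjusted p = 0.0417), a call lost when any 1 library other than cryo 1 was left out (adjusted p = 0.0656 to 0.134). FASN, fatty acid synthase, had 21, 26.9 and 31.8 CPM in fresh 1 to 3, 14.2 in cryo 1, and 11.6 and 11.1 in cryo 2 and cryo 3 and did not pass (adjusted p = 0.0746).

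Mitochondrial genes had lower medians in cryo 1 as well. Of 37 genes of beta-oxidation, which burns fatty acids, 11 (29.7%) lay below all others, against 13.9% of all tested genes. The median difference was -0.69, against -0.94 in cryo 1. On this list 1 gene stood apart lower (2.7%), near the 1.89% of all tested genes. That gene was ACAT1, a thiolase, with 413, 462 and 587 CPM in fresh 1 to 3, 333 in cryo 1, and 76.9 and 145 in cryo 2 and cryo 3. The label test called 7 of the 37, all lower, where 0.963% of all tested genes were called lower. The calls of CPT2, HADHA and cpt1ab, of this pathway, were each lost when any 1 library other than cryo 1 was left out. The remaining calls are not reported here. All 13 tested genes of the mitochondrial genome, which encode parts of the respiratory chain, lay below all 4 other libraries in the vitellogenic pair. Of all tested genes 13.9% did so. The median difference of the 13 was -1.23, against -0.83 in cryo 1, and only MT-ND6 reached the 2-fold gap (7.69%, against 1.89% of all tested genes). MT-ND6 had 1390.5, 1386 and 1271 CPM in fresh 1 to 3, 715 in cryo 1, and 326 and 304 in cryo 2 and cryo 3. MT-CO1, with the most counts of them, had 24172, 23746 and 25852 CPM in fresh 1 to 3, 16357 in cryo 1, and 11337 and 7652 in cryo 2 and cryo 3. Beside this, mt-atp8 fell in the label test (adjusted p = 0.0465), a call lost when any 1 library other than cryo 1 was left out.

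Among plasma protein genes, the other main secretory product of the liver, none of the 44 tested stood apart. Without a minimum gap, 13 (29.5%) lay below all others, against 13.9% of all tested genes. Only 1 (2.27%) lay above, against 11.9% of all tested genes. The median difference was -0.20, against 0.33 in cryo 1. Transferrin, tfa, had 41418, 26277 and 22259.8 CPM in fresh 1 to 3, 127072 in cryo 1, and 94539.9 and 78269 in cryo 2 and cryo 3, so cryo 1 was the highest. The complement gene c3a.1 had 31616, 21877 and 19996 CPM in fresh 1 to 3, 34731 in cryo 1, and 53934 and 66033 in cryo 2 and cryo 3 and was the 1 above. FGB, a fibrinogen chain, had 14666, 11005 and 13864 CPM in fresh 1 to 3, 9161 in cryo 1, and 6561 and 9399 in cryo 2 and cryo 3. hpxa, which binds haem and was not on the list, stood apart lower and was chosen after its values were seen, with 3207, 4735 and 7983 CPM in fresh 1 to 3, 4360.0 in cryo 1, and 639 and 734 in cryo 2 and cryo 3. fabp10a, the fatty acid binding protein that marks hepatocytes in zebrafish, was lowest in the vitellogenic pair, at 8736, 8485 and 9466 CPM in fresh 1 to 3, 14314 in cryo 1, and 5738 and 2329.6 in cryo 2 and cryo 3. The label test called F9, a clotting factor gene, as lower (adjusted p = 0.0167), a call lost when any 1 of the 3 fresh libraries was left out.

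Iron, growth and cell division lists held few genes that stood apart. Of 18 genes of iron and metal handling, 1 stood apart higher (5.56%, against 1.67% of all tested genes). This was SLC39A8, a metal transporter, with 0.647, 1.03 and 0.718 CPM in fresh 1 to 3, 0.453 in cryo 1, and 2.27 and 2.78 in cryo 2 and cryo 3. hamp, the gene of the iron hormone hepcidin, had 156, 434 and 303 CPM in fresh 1 to 3, 33.8 in cryo 1, and 9.65 and 23.5 in the vitellogenic pair, and fell in the label test, with a log2 change of -3.73 ± 0.58 (SE, adjusted p = 0.0251), a call lost without fresh 2, fresh 3 or cryo 3. None of 26 genes of growth hormone and IGF signalling stood apart, and 7 (26.9%) lay below all others, against 13.9% of all tested genes. IGF1, the circulating growth factor, had 193, 182 and 132 CPM in the fresh libraries, 51 in cryo 1 and 30.9 and 43.7 in cryo 2 and cryo 3, and fell likewise, with a log2 change of -2.01 ± 0.30 (adjusted p = 0.0232), a call lost when any 1 library other than cryo 1 was left out (adjusted p = 0.0505 to 0.0929). IGFBP1, which binds it in blood, had 3479.7, 1843 and 4934 CPM in fresh 1 to 3, 2176 in cryo 1, and 191 and 1240.0 in cryo 2 and cryo 3 and was not called (adjusted p = 0.356), and IGFALS overlapped, at 597 and 789 CPM against 502, 942 and 744 and 792.

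Of 18 cell cycle genes, 2 stood apart higher (11.1%, against 1.67% of all tested genes), both at low levels. mki67, a marker of dividing cells, had 0.647, 0.599 and 0.897 CPM in fresh 1 to 3, 0.712 in cryo 1, and 2.7 and 3 in cryo 2 and cryo 3, and MCM6 (ENSDARG00000057683), of the replication helicase, had 0.529, 0.544 and 0.479 CPM in fresh 1 to 3, 0.712 in cryo 1, and 1.7 and 1.78 in cryo 2 and cryo 3. Of 11 genes of serine and glycine synthesis and uptake, 1 stood apart higher (9.09%, against 1.67% of all tested genes). This was SLC3A2, a partner chain of amino acid exchangers. It had 3.94, 1.63 and 4.61 CPM in fresh 1 to 3, 2.78 in cryo 1, and 26.5 and 23.9 in cryo 2 and cryo 3. Of that list 4 (36.4%) lay below all others, against 13.9% of all tested genes. In steroid metabolism, 1 of 26 stood apart on each side (3.85% each, against 1.67% higher and 1.89% lower of all tested genes). HSD17B7, given above among the cholesterol genes, was higher. sult1st4, of a family of sulphotransferases, was lower, with 68.1, 61.5 and 74.4 CPM in fresh 1 to 3, 70.1 in cryo 1, and 18.4 and 24.4 in cryo 2 and cryo 3. Lists of hepatocyte transcription factors (20 tested) and of the circadian clock (26 tested) held none, and the sign of their median differences depended on single libraries. CEBPA of the first of these rose in the label test (adjusted p = 0.0379), a call lost when any 1 library other than cryo 1 was left out.

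Markers of macrophages, exocrine pancreas and intestine had raised list medians in cryo 1 as well as in the vitellogenic pair. Of 21 macrophage genes none stood apart, 8 lay above all 4 other libraries (38.1%, against 11.9% of all tested genes), and the label test called 4 as higher, where 1.02% of all tested genes were called higher. These were cd74a, cd74b and 2 copies of MFAP4, and each call was lost when any 1 library other than cryo 1 was left out. The median difference of the macrophage genes was 1.44 between the vitellogenic pair and the other libraries and 1.34 between cryo 1 and the fresh mean. Their summed level was 1801, 366 and 489.8 CPM in fresh 1 to 3, 2172 in cryo 1, and 2441 and 1769.9 in cryo 2 and cryo 3. cd74a, an antigen presentation gene, had 85.7, 50.6 and 63.5 CPM in fresh 1 to 3, 165 in cryo 1, and 259.6 and 304 in cryo 2 and cryo 3, and rose in the label test, with a log2 change of 1.87 ± 0.34 (adjusted p = 0.0407). Exocrine pancreas genes summed to 1195, 907 and 578 CPM in fresh 1 to 3, 4488 in cryo 1, and 2337 and 5511 in cryo 2 and cryo 3, so the highest libraries were cryo 1 and cryo 3. The median difference over 21 tested genes was 1.6 between the vitellogenic pair and the other libraries and 2.73 between cryo 1 and the fresh mean. Of the 21, 10 were called as higher by the label test and 0 as lower, against 1.02% and 0.963% of all tested genes. DESeq2, which also called more genes than edgeR over the whole set, called 17 and 0. Each of the 10 calls was lost when any 1 fresh library was left out. ela2, an elastase, was the 1 member that stood apart, as higher (4.76%, against 1.67% of all tested genes). It had 2.88, 4.68 and 4.79 CPM in fresh 1 to 3, 6.53 in cryo 1, and 17.7 and 42.5 in cryo 2 and cryo 3. Islet markers were highest in cryo 1, at 234 CPM, with 0.764 to 12.5 in the fresh libraries and 0.709 and 26.3 in cryo 2 and cryo 3. Red blood cell genes overlapped, at 199 and 95.5 CPM in the pair against 92.2 to 269 elsewhere, and so did testis genes, which summed to 1.94 to 3.21 CPM in all 6 libraries. Bile duct and stellate markers summed to 1125 and 885 CPM in the pair, 634 to 816 in the fresh libraries and 1389.9 in cryo 1, and intestine markers to 53.6 and 49.2, against 28.8 to 40.6 in the other 4. The part of these cells in the differences above was not tested.

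The test of the labels, cryopreserved over fresh, called other genes for the most part. It called 251 of 12674 genes (1.98%) at an adjusted p under 0.05 (edgeR's quasi-likelihood test), 129 higher (1.02%) and 122 lower (0.963%). Of the 251, 13 also stood apart in the vitellogenic pair: 7 of the 212 higher genes and 6 of the 239 lower genes. The same libraries enter both, so the shared genes are no independent support. In 3 of the 251 cryo 1 was shifted less than 0.5 times as far as cryo 2 and cryo 3, and in 0 it was shifted the opposite way. That result is largely built in, because the test readily calls only genes in which cryo 1 moves with cryo 2 and cryo 3. The rule for standing apart asks for cryo 1 across a 2-fold gap, so the small overlap is largely built in too. Among the 7 higher was sult6b1, a sulphotransferase, with 1.59, 1.31 and 0.837 CPM in fresh 1 to 3, 7.18 in cryo 1, and 24.1 and 23.1 in cryo 2 and cryo 3, and a log2 change of 3.85 ± 0.54 (SE, adjusted p = 0.0195). RAMP3, a receptor partner protein, had 5.53, 5.23 and 5.2 CPM in fresh 1 to 3, 11.5 in cryo 1, and 48 and 57.6 in cryo 2 and cryo 3 (adjusted p = 0.0465). Among the 6 lower was NCEH1 (ENSDARG00000020427), a cholesterol ester hydrolase in mammals, with 64.1, 56.2 and 75.3 CPM in fresh 1 to 3, 4.08 in cryo 1, and 0.851 and 1.33 in cryo 2 and cryo 3, and a log2 change of -4.88 ± 0.56 (adjusted p = 0.00982). These 3 genes and the count were chosen after their values were seen. The count of calls depended on single libraries: it was 79, 47 and 32 without fresh 1, 2 and 3, and 873, 149 and 119 without cryo 1, 2 and 3. Of the 251 genes, 58, 43 and 28 kept their call without fresh 1, 2 and 3, 245, 116 and 90 without cryo 1, 2 and 3, and 27 in each of these 6 fits. The call of NCEH1 was lost without fresh 3 (adjusted p = 0.0504), that of sult6b1 when any 1 fresh library was left out and that of RAMP3 when any 1 library other than cryo 1 was left out.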

How the data were processed

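The authors deposited whole-number counts per gene for 32520 Ensembl identifiers, made from HISAT2 alignments per the file headers, on GRCz11 (danRer11) per the submitters' processing notes. Per the labels' protocols, Trizol RNA was selected on poly-T beads, primed with random hexamers and sequenced in pairs. How reads were counted, with or without strand and on which annotation, is not given in the sources used here; reads of overlapping or antisense genes may therefore be mixed. A name table matched 29201 identifiers, and many of its symbols in capitals stand for several zebrafish genes; these carry their identifier.

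Log2 CPM came from edgeR 4.0.16 (R 4.3.3) with TMM factors, filterByExpr and a prior count of 2. Group labels were tested with glmQLFTest, without a replicate block, at a two-sided Benjamini-Hochberg adjusted p of 0.05. The biological coefficient of variation was 0.413. The procedure was tested on simulated data. The vitellogenic split rests on measured values, so it has no test. Library members, gene lists and comparisons were chosen with earlier results of these data known. Named genes are the vitellogenins, ESR1 and nots, the 12 widest gaps each way with at least 10 CPM in the highest library, up to 4 members per list that stood apart (else the 2 most abundant), 10 fixed liver genes, and the 5 genes of highest mean CPM. Others are said to be chosen after their values were seen, as were list members called by the label test and members given for contrast. No 2 libraries of a group agreed within sampling noise. Same-numbered libraries of the groups deviated with correlations of -0.07, -0.13 and 0.06. These give no sign of pairing, but so few libraries cannot exclude it, and the labels state none. Alternatives were other scalings, filters, prior counts, gaps, tools (DESeq2 1.42.0, limma 3.58.1), a replicate block and left-out libraries. Some genes that the rule covers are not reported here. No sequences are printed. Figures were drawn with matplotlib 3.10.9.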

Additional observations from a re-analysis of the deposited data

Results flagged for a closer look

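Among the 4 libraries other than the vitellogenic pair, the highest or lowest library of 7 named genes, out of 91 examined, lay far from the other 3; chance gives about 1 in 20. The value is the gap to the nearest library over the whole range of the 4. Cryo 1 stood off for apoeb (0.933), ANPEP (ENSDARG00000097285, 0.881) and MT-ND6 (0.865), in each case below the fresh libraries. For apoeb and MT-ND6 that is the side of the vitellogenic pair, and for ANPEP it is not. Fresh 1 stood off, above the others, for SSR1 (0.968), CEBPD (0.869) and si:ch211-201o1.1 (0.837). Fresh 2 stood off for tenm1 (0.832), also above.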

How the results depend on the processing

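The vitellogenic libraries were cryo 2 and cryo 3 at thresholds of 0.1% and 5% and by vtg1 alone. Genes standing apart higher numbered 128 with totals of all counts, 359 without a filter, 1506 at any gap, 44 at 4-fold and 347 to 695 with each library left out. Those lower numbered 146 at a mean of at least 5 CPM, 1767, 64, and 256 to 958 over the same 3 settings. Leaving a library out asks for fewer libraries to be cleared, so its counts rise by construction. Genes called by the label numbered 705 without a filter (405 higher, 300 lower), 1162 by DESeq2 (636, 526), 721 at an adjusted p under 0.1 (358, 363), 109 without cryo 2 and cryo 3 (67, 42; 60 among the 251), and 32 to 873 with each library left out (15 to 481 higher, 17 to 392 lower); the cause was not tested. A replicate block called 33 (17 higher, 16 lower), 31 of them among the 251. The labels do not state that shared numbers pair the libraries.

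With totals of all counts, list medians were -1 (apolipoproteins), 1.64 (cholesterol), -0.45 (phospholipid), -1.21 (amino acid breakdown), -0.41 (plasma proteins), 0.07 (iron), 0.44 (cell cycle), 1.11 (ribosomal), 0.38 (translation), -0.52 (hepatocyte transcription factors), -0.43 (circadian) and -0.84 (hepatocyte markers). With each library left out they ran from 0.02 to 0.42 for steroid receptors, -1.05 to -0.47 for apolipoproteins, 1.78 to 2.18 for cholesterol, -0.30 to 0.15 for phospholipid, -1.28 to -0.72 for glucose, -1.27 to -0.84 for amino acid breakdown, -0.88 to -0.35 for serine and glycine, -0.37 to -0.01 for plasma proteins, 0.20 to 0.47 for iron, 0.54 to 0.85 for cell cycle, 1.23 to 1.39 for ribosomal, 0.46 to 0.74 for translation, -0.36 to 0.06 for hepatocyte transcription factors, -0.30 to 0.10 for circadian, -0.86 to -0.36 for hepatocyte markers and -0.79 to 0.58 for red blood cell markers. No other list median moved by more than the spread between libraries.

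Of 1179 recomputed differences of named genes, 85 moved by more than that spread and none reversed. Calls of cd74a, ELOVL6, hamp and IGF1 were lost in 26 recomputed tests, and 106 tests of other genes passed under an alternative. The 26 include the fit without cryo 2 and cryo 3, with log2 changes of 1.35, -4.64, -3.1 and -1.69 in that order. That fit leaves 1 library in the cryopreserved group, so its lost calls cannot show whether a change depends on the vitellogenic pair. Depth limits low genes in cryo 2 and cryo 3: at 8277183 counts in every library, 180 genes stood apart higher and 193 lower.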
